A study of Mus musculus with 8 samples.

Results

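The complement genes described here are the chains of C1q (*C1qa*, *C1qb*, *C1qc* and its older name *C1qg*), the central components *C3* and *C4b*, complement factor B (*Cfb*), and the anaphylatoxin receptors *C3ar1* and *C5ar1*. Every probe of the bead chip whose gene symbol is one of these 9 names was taken. The chip has 45281 probes for 30789 gene symbols, and 8 of the names were found on it, with 10 probes in all. 3 of these probes belong to *C4b*, each other gene has 1, and no probe is annotated as *C1qg*. The arrays were hybridized with RNA from macrophages of the peritoneal cavity, drawn there by thioglycollate broth in C57/BL6 mice aged 8 weeks. One group of 4 samples received acetylated low-density lipoprotein (Ac-LDL) at 120 μg per ml for 24 h, and 4 mock-treated samples served as control. Ac-LDL is a chemically modified lipoprotein that macrophages take up through scavenger receptors and that loads them with cholesterol, which turns them into foam cells. By the study's methods, cells that did not adhere were washed off, and medium conditioned by L-929 fibroblasts, a source of the macrophage growth factor CSF1, was part of the culture. The comparison asks which genes respond to Ac-LDL, and it does not separate cholesterol from the other lipids of the particle. Replicate numbers run from 1 to 4 in both groups, and nothing says whether the same numbers are the same mice, so p-values measure the spread between these samples. Replicates 1 and 2 of both groups lie on slide 1, and replicates 3 and 4 on slide 2.

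Complement is a cascade of plasma and tissue proteins that marks particles, dying cells and immune complexes for removal. C1q, built of A, B and C chains with a collagen-like stem and globular heads, is the recognition unit of the classical pathway and is made mainly by macrophages and related cells rather than by the liver. C4 and C3 are cleaved in turn by proteases, their large fragments bind to the target, and factor B forms the alternative-pathway protease that amplifies C3 cleavage. The small fragments C3a and C5a act on the receptors C3AR1 and C5AR1 of myeloid cells. C1q and C3 are both found in atherosclerotic plaques, where foam cells accumulate.

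The probes that carry the main comparison are 50-base sequences of the sense strand, as given in the deposited annotation. Those of the C1q chains are shown because their signals moved together, and the longest stretch that any pair of them shares is 5 bases.
*C1qa* probe ILMN_2776431: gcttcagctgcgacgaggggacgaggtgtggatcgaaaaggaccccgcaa
*C1qb* probe ILMN_2619620: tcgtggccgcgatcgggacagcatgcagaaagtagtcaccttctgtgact
*C1qc* probe ILMN_2715840: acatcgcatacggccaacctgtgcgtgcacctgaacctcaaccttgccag
The annotation places them on the minus strand of chromosome 4, at 136452139 to 136452188 for *C1qa*, 136436367 to 136436416 for *C1qb* and 136446132 to 136446181 for *C1qc*, in a genome build it does not name and with no exon given. In the RefSeq annotation of GRCm38.p6, *C1qb*, *C1qc* and *C1qa* follow each other along the chromosome with no other gene between them. 2 of the 3 *C4b* probes are shown because they are nearly the same sequence. The 46 bases in capitals occur in both, so that their signals are not separate measurements of *C4b*.
*C4b* probe ILMN_2632563: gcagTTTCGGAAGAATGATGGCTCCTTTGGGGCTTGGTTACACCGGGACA
*C4b* probe ILMN_2632567: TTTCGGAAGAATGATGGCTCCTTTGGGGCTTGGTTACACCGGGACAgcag
The third *C4b* probe (ILMN_3049559) shares at most 6 bases in a row with either of them. *C4a*, the closely related gene beside *C4b* in the complement cluster of chromosome 17, has 3 probes of its own, and none of them shares more than 5 bases in a row with a *C4b* probe. Only probes were compared with each other, so whether a *C4b* probe also binds *C4a* RNA was not tested.

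*C1qb*, *C3*, *C1qc* and *C1qa* were detected on all 8 arrays with bright probes, *C5ar1* and 1 *C4b* probe on all 8 arrays with dim ones, and *C3ar1* and *Cfb* were at the level of the negative controls on most arrays. A probe counts as detected on an array when its deposited detection p-value, a rank against the negative controls of that array, is at most 0.05. Brightness depends on the probe as well as on the amount of RNA, so the order below is one of probe signals and not of transcripts. By place among the 45281 probes of an array, the *C1qb* probe lay between places 152 and 821, *C3* between 377 and 518, *C1qc* between 444 and 1938 and *C1qa* between 1739 and 5296. The ranges of neighbours in this order overlap, and *C3* kept its place far more closely than the C1q chains did. *C5ar1* lay between places 8524 and 14888, and *C4b* (ILMN_3049559) between 10668 and 14841, which also overlap. The median deposited signals over the 8 arrays were 7633 for *C1qb*, 4621 for *C3*, 2989 for *C1qc*, 844 for *C1qa*, 83.3 for *C5ar1* and 74.1 for *C4b* (ILMN_3049559). The remaining 4 probes had medians from 44.4 to 48.9, close to the array medians over all probes of 42.5 to 46.4. The number of beads behind a member's signal ran from 23 (*C1qa*) to 66 (*C4b* ILMN_2632567 and *C5ar1*).

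**Figure D1:**
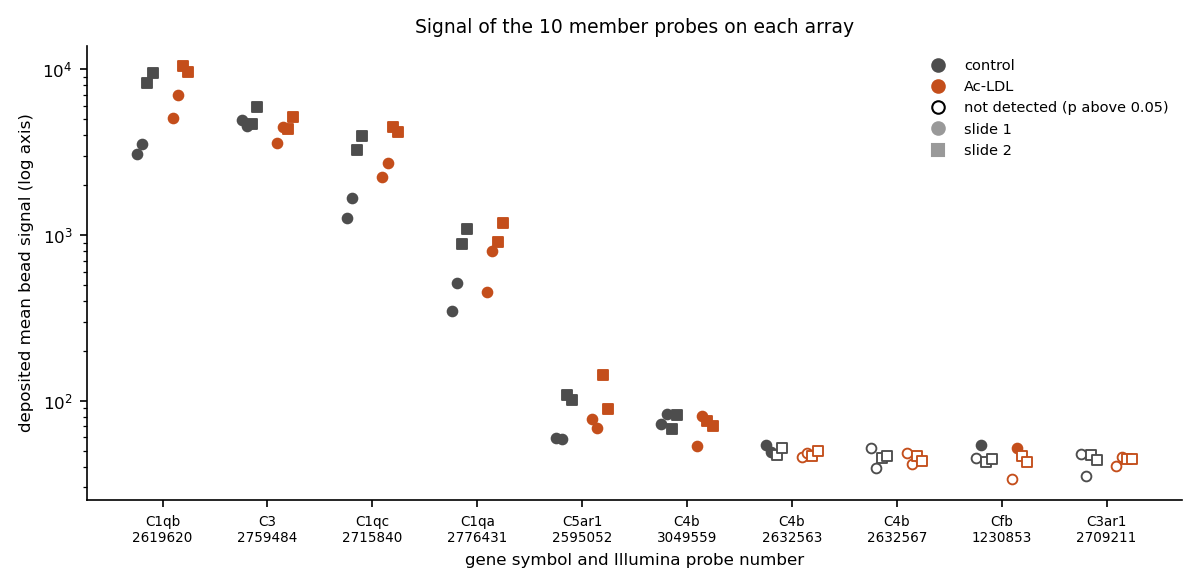
Deposited mean bead signal (log axis) of the 10 member probes, ordered by median, with 1 point per array, circles for slide 1 and squares for slide 2, and open points where the probe was not detected. *C1qb* runs from 3067 to 10443 with slide 2 above slide 1 within each group, *C3* stays between 3613 and 5923, and the 4 probes on the right lie between 33.5 and 53.8.

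The C1q chain probes had higher mean signals with Ac-LDL, by 1.39-fold for *C1qa*, 1.59-fold for *C1qb* and 1.59-fold for *C1qc*, but none of them passed the test. Values from here on are log2 signals after background correction and quantile normalization unless said otherwise. *C1qb* measured 11.38, 11.94, 12.90 and 13.02 in control replicates 1 to 4 and 12.45, 12.87, 13.35 and 13.25 in Ac-LDL replicates 1 to 4. Each Ac-LDL sample was above the control of its own number, yet the controls of slide 2 were above both Ac-LDL samples of slide 1, so that the groups overlap. *C1qc* measured 10.09, 10.83, 11.59 and 11.76 in control and 11.25, 11.46, 12.16 and 12.07 with Ac-LDL, with the same overlap. *C1qa* measured 8.13, 9.10, 9.67 and 9.89 in control and 8.90, 9.69, 9.83 and 10.27 with Ac-LDL. Here too every pair was higher with Ac-LDL, and control replicate 1 was the lowest array for all 3 chains.

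**Figure D2:**
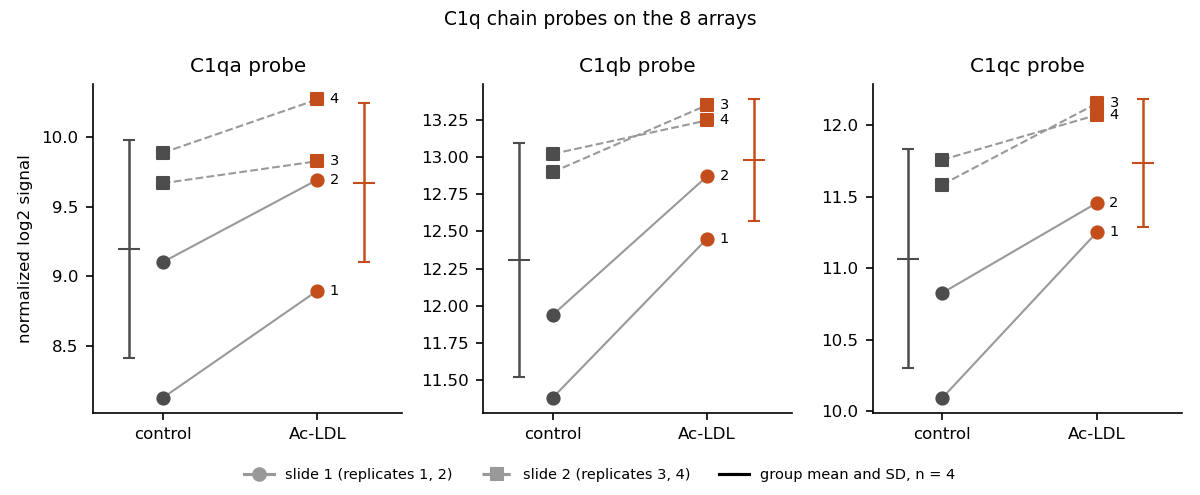
Normalized log2 signal of the *C1qa*, *C1qb* and *C1qc* probes on each array, with lines joining the control and Ac-LDL samples of one replicate number (solid with circles for slide 1, dashed with squares for slide 2), the number beside the Ac-LDL point, and group means with SD (n = 4). All 12 lines go up, and those of slide 2 start above those of slide 1.

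For *C1qb* the group means were 12.31 ± 0.79 (SD, n = 4) in control and 12.98 ± 0.41 (SD, n = 4) with Ac-LDL, a log2 fold change of 0.67 with a 95% interval from -0.11 to 1.45 (limma, adjusted p = 0.960). *C1qc* had means of 11.07 ± 0.77 (SD, n = 4) and 11.74 ± 0.45 (SD, n = 4), and its log2 fold change of 0.67 had an interval from -0.11 to 1.45 (limma, adjusted p = 0.960). *C1qa* had means of 9.20 ± 0.78 (SD, n = 4) and 9.67 ± 0.57 (SD, n = 4), and its log2 fold change of 0.48 had an interval from -0.37 to 1.32 (limma, adjusted p = 0.974). All 3 intervals include 0, and all 3 reach past a log2 fold change of 1. In the order of log2 fold changes over the 17122 probes tested, *C1qb* took place 27, *C1qc* place 29 and *C1qa* place 97, and 1.31% of the tested probes had an absolute change as large as that of *C1qa*.

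The differences within pairs of the same number show how unequal the samples were. The Ac-LDL minus control difference of *C1qb* was 1.07, 0.93, 0.45 and 0.23 in pairs 1 to 4, that of *C1qc* 1.16, 0.63, 0.57 and 0.31, and that of *C1qa* 0.77, 0.59, 0.16 and 0.38. For each chain both pairs of slide 1 exceeded both pairs of slide 2. Higher in all 4 pairs were 3 of the 6 member probes tested, the C1q chains, against 11.5% of all probes tested. In the fit blocked by replicate, the intervals no longer include 0 (0.35 to 0.99 for *C1qb*, 0.37 to 0.96 for *C1qc* and 0.23 to 0.72 for *C1qa*), but the calls do not change (limma with the block, adjusted p = 0.103, 0.0804 and 0.128). In units of the bead standard error of a difference, which covers neither normalization nor the spread between samples, the deposited signals of pairs 1 to 4 differed by 14.7, 18.8, 6.71 and 0.58 for *C1qb*, by 16.8, 14.5, 9.34 and 1.69 for *C1qc*, and by 4.36, 7.59, 0.66 and 1.86 for *C1qa*. Without control replicate 1 the log2 fold change was 0.36 for *C1qb*, 0.34 for *C1qc* and 0.12 for *C1qa*.

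The C1q signals differed between the slides by more than the mean Ac-LDL difference, though these sizes were not tested against each other. *C1qb* was 0.97 higher on slide 2 than on slide 1 (limma slide term, adjusted p = 0.00385), *C1qc* 0.99 (adjusted p = 0.00276) and *C1qa* 0.96 (adjusted p = 0.0162). 4 of the 6 member probes tested were called higher on slide 2, these and *C5ar1*, against 11.7% of all probes tested. The slide term was added after the data had been seen. It treats all arrays as independent, but samples of the same number share a slide. Its p-values, here and below, can therefore be too small if the numbers pair the samples. A difference between slides also cannot be told apart from one between the cells of replicates 1 and 2 and those of replicates 3 and 4. The first principal component of the tested probes held 50.2% of their variance and separated the slides. Within slide 1 the mean Ac-LDL difference was 1.00 for *C1qb*, 0.90 for *C1qc* and 0.68 for *C1qa*, and within slide 2 it was 0.34, 0.44 and 0.27. The difference between the slides was itself tested as an interaction in limma, and for *C1qb* it was -0.66 (SE 0.28) with an adjusted p = 0.588. For *C1qc* it was -0.45 (SE 0.30) and for *C1qa* -0.41 (SE 0.47), and no probe of the chip passed this test.

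Macrophage markers also differed between the slides, and none was called with Ac-LDL. Of 10 macrophage marker probes, all tested, 6 were called higher on slide 2 and none lower, among them the surface receptor gene *Emr1* by 1.19, the mannose receptor gene *Mrc1* by 1.07 and *Itgam*, the alpha chain gene of complement receptor 3 and also one of the wider complement list below, by 1.01. The 10 probes stand for 9 genes, since *Lyzs* is an older name of *Lyz2*. The summed linear level of the list ran from 72850 to 77484 on slide 1 and from 85147 to 88235 on slide 2, and 81.1% to 84.7% of it came from the 3 lysozyme probes (*Lyz2*, *Lyzs* and *Lyz*). Without these the sum was 11581 to 12939 on slide 1 and 15375 to 16581 on slide 2. Between the groups the sums of the whole list overlapped, with 72850 to 88235 in control and 76416 to 87924 with Ac-LDL, and so did those without lysozyme, with 11581 to 16222 and 11705 to 16581. With Ac-LDL 6 of the 10 probes were higher and 4 lower, and none was called with or without the replicate block. *Cd14*, the coreceptor for lipopolysaccharide, was lower with Ac-LDL in all 4 pairs, with a log2 fold change of -0.48 (limma, adjusted p = 0.960, and 0.0808 with the replicate block). In bulk RNA, fewer cells of a type and less RNA per cell cannot be told apart. The part of the macrophage share in the C1q difference between slides was not tested. The label of the samples is borne out by very bright *Lyz2* and *Cd68* probes, at 14.59 to 14.87 and 12.96 to 13.26. Genes of fibroblasts and mesothelial cells were bright too, with *Dcn* at 12.93 to 13.42 and *Upk3b* at 11.12 to 11.71, and 6 of 7 such markers were tested, with *Msln* not detected. Their summed level was 12581 to 17487 in control and 13671 to 15597 with Ac-LDL, and 14848 to 17487 on slide 1 against 12581 to 15597 on slide 2, and none was called with Ac-LDL. Of the neutrophil list, 2 of 5 genes were tested. Their sum, nearly all *S100a8*, was 583 to 639 in control and 685 to 749 with Ac-LDL. These ranges do not overlap, which was so for 3.8% of all probes tested, and *S100a8* itself was not called (log2 fold change 0.24, limma adjusted p = 0.845). *Camp*, *Ngp* and *S100a9* of that list failed the detection filter, and its part in the C1q values was not tested. Of the other lists, 2 of 6 genes of resident peritoneal macrophages, 1 of 4 B cell genes, 1 of 6 T and NK cell genes, 1 of 4 dendritic cell genes, and none of 4 eosinophil or 4 mast cell genes were tested. None of these was called with Ac-LDL. The slide 2 minus slide 1 difference of the 2 resident macrophage genes was -0.34 for *Selp* and -0.14 for *Gata6* (limma slide term, adjusted p = 0.0308 and 0.325). Of the 6 fibroblast and mesothelial markers tested, 1 was higher on slide 2, and *Col1a1* was called lower there, at -0.41 (limma slide term, adjusted p = 0.0199).

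**Figure D3:**
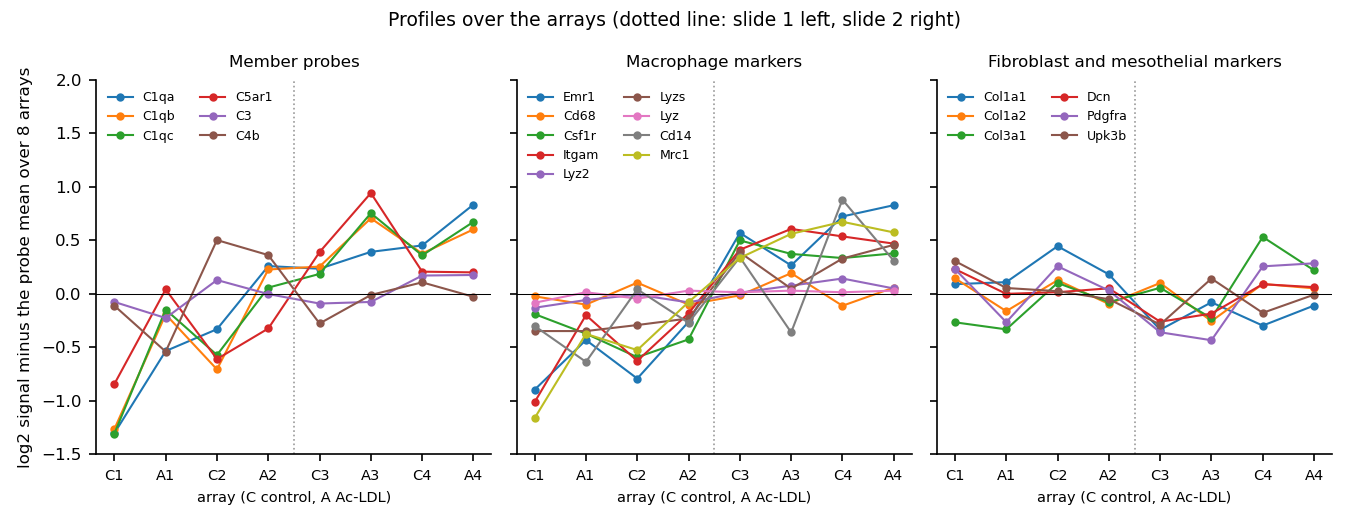
Log2 signal of each tested probe minus its own mean over the 8 arrays, for the 6 member probes tested (left), 9 of the 10 macrophage marker probes (middle) and the fibroblast and mesothelial markers (right), with control (C) and Ac-LDL (A) samples in order of replicate number and a dotted line between the slides. The C1q and *C5ar1* lines and several macrophage markers are higher to the right of the dotted line, and *C3*, *Cd68* and *Lyz* stay near 0.

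The C1q chains had nearly the same profile over the arrays. Centred on their own means, *C1qb* and *C1qc* differed by 0.07 per array on average and by at most 0.17, beside an SD over the 8 arrays of 0.68 for each. *C1qa* differed from *C1qb* by 0.18 and from *C1qc* by 0.19 on average. Likeness was measured as this mean absolute difference over the 8 arrays, among tested probes whose SD lay within a factor of 1.5 of the member's. By it the nearest gene to *C1qb* was *C1qc*, out of 552 candidate probes, followed by *Sepp1*, which encodes selenoprotein P, at 0.11. The nearest to *C1qc* were *C1qb* and again *Sepp1*, at 0.09. The nearest to *C1qa* were *Fcna*, which encodes ficolin A, at 0.13 and *Apoe*, the apolipoprotein by which macrophages export cholesterol, at 0.14. *Apoe* was 0.60 higher with Ac-LDL and higher in all 4 pairs (limma, adjusted p = 0.963 unblocked, 0.0261 blocked by replicate, 0.342 blocked by slide). The arrays share the slide difference, and all these genes were higher on slide 2, by 0.77 (*Fcna*) to 1.07 (*Apoe*), so the likeness is a description of 8 arrays.

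Since the chains moved together, the sequences upstream of their start sites are given. RefSeq sequences for GRCm38.p6 matched 5 of the 8 member genes, *C1qb*, *C1qc*, *C3*, *C3ar1* and *C5ar1*. The 250 bases before the start were searched on both strands for GAGGAA, the core of sites of the myeloid factor PU.1, and for AGGTCA, the repeat unit in sites of many nuclear receptors. Matches are in capitals, read 5′ to 3′ on the strand of the gene, and no match overlaps another.
*C1qb*, chr4:136886201-136886450, minus strand: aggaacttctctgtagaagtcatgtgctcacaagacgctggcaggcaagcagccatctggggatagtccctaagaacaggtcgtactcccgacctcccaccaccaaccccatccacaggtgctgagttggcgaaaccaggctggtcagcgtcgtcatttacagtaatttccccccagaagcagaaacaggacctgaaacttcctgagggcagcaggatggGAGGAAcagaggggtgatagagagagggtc
*C1qc*, chr4:136892915-136893164, minus strand: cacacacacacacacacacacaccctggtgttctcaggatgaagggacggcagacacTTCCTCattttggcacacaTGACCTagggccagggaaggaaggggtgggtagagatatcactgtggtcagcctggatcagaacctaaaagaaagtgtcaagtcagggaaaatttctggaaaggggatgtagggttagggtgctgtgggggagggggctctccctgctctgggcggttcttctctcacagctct
GAGGAA or its reverse complement was present once in each, and AGGTCA once upstream of *C1qc*, in reverse. The same letters occur in 23.3% (GAGGAA) and 14.0% (AGGTCA) of 32851 windows of the same length. *C3* held AGGTCA once, and the windows of *C3ar1* and *C5ar1* held neither motif. A match describes these letters only and is not a binding site.

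*C3*, the component on which the complement pathways converge, was steady at a high signal. Its probe (ILMN_2759484) is shown for that reason and lies at base 5003 of the transcript.
*C3* probe ILMN_2759484: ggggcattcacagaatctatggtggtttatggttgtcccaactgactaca
*C3* measured 12.11, 12.32, 12.10 and 12.36 in control replicates 1 to 4 and 11.96, 12.19, 12.11 and 12.36 with Ac-LDL. The means were 12.22 ± 0.14 (SD, n = 4) and 12.16 ± 0.17 (SD, n = 4). The log2 fold change was -0.07 with an interval from -0.32 to 0.19 (limma, adjusted p = 0.990), which leaves out a change as large as the mean differences of the C1q chains. *C3* was lower with Ac-LDL in both pairs of slide 1 (-0.15 and -0.13) and differed by 0.015 in pair 3 and by less in pair 4. Between the slides it differed by 0.09 (limma slide term, adjusted p = 0.574). Its nearest profiles, among 9580 candidates with as small an SD, were those of *Mbd4* and *Mdh2*.

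*C4b*, the component that is cleaved by the C1 complex and deposited beside it, was near the detection limit. The probe ILMN_3049559, which the annotation splits over 2 segments between 34865419 and 34865468 of chromosome 17, measured 5.47, 6.08, 5.30 and 5.69 in control and 5.04, 5.94, 5.57 and 5.55 with Ac-LDL. The groups overlap over nearly their whole range, and only pair 3 was higher with Ac-LDL. The log2 fold change was -0.11 with an interval from -0.57 to 0.35 (limma, adjusted p = 0.990), and its sign turns when control replicate 2 or Ac-LDL replicate 1 is left out. Its nearest profiles, among 5341 candidates, were those of *Agtr1a* and *Pqbp1*. The overlapping *C4b* probes gave no test, since ILMN_2632567 was detected on none of the 8 arrays and ILMN_2632563 on 2, control replicates 1 and 2. Their deposited signals were 39.4 to 52.0 and 45.9 to 53.8.

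*Cfb*, the protease of the alternative pathway, had 1 probe that was detected on 2 of 8 arrays, control replicate 2 at a signal of 53.7 and Ac-LDL replicate 2 at 51.6. The other 6 signals were between 33.5 and 46.2. Both detected samples carry the same replicate number, 1 in each group, and no fold change is given. *Cfb* was not well above background, which limits what the probe can show and does not say that the transcript was absent.

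*C5ar1*, the receptor for C5a on macrophages and neutrophils, was dim and, like the C1q chains, higher on slide 2. It measured 5.03, 5.27, 6.27 and 6.08 in control and 5.92, 5.55, 6.82 and 6.08 with Ac-LDL. The slide 2 controls exceeded both slide 1 Ac-LDL samples, so the groups overlap, and Ac-LDL was higher in 3 of 4 pairs, with pair 4 at -0.01. The means were 5.66 ± 0.60 (SD, n = 4) and 6.09 ± 0.53 (SD, n = 4), and the log2 fold change of 0.43 had an interval from -0.28 to 1.14 (limma, adjusted p = 0.968). With a background offset of 50 in place of 16 the log2 fold change was 0.27. On slide 2 the probe was 0.87 higher (limma slide term, adjusted p = 0.00530), and the Ac-LDL difference was 0.59 on slide 1 and 0.27 on slide 2. Without Ac-LDL replicate 3, the brightest sample, it was 0.19. The nearest profiles to *C5ar1* were those of *Gsn*, which encodes the actin-severing protein gelsolin, and the adenylyl cyclase gene *Adcy7*. *C3ar1*, the receptor for C3a, was detected on none of the 8 arrays. Its deposited signals were 48.0, 35.2, 47.0 and 43.6 in control and 40.5, 45.4, 44.4 and 44.5 with Ac-LDL, and detection p-values ran from 0.103 to 0.757. Its probe lies at base 2843 of the transcript, and no fold change is given.

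Across the 6 member probes tested, which are the 6 that were detected on all 8 arrays, none was called with Ac-LDL by limma, against 0.0409% (7) of all 17122 probes tested. None had an unadjusted p under 0.05 in this model, against 5.2% of all probes tested, or by the methods' t-test. With the replicate block 4 had one, the C1q chains and *C5ar1*, against 13.8% of all probes tested. The replicate block called 76 probes of the chip but no member. 4 members had a higher mean with Ac-LDL and 2 a lower one, and none had groups that did not overlap, against 3.8% of all probes tested. The median log2 fold change of the 6 was 0.45, and that of all probes tested was under 0.01 in size. The other 4 member probes failed the detection filter and are not in these counts.

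**Figure D4:**
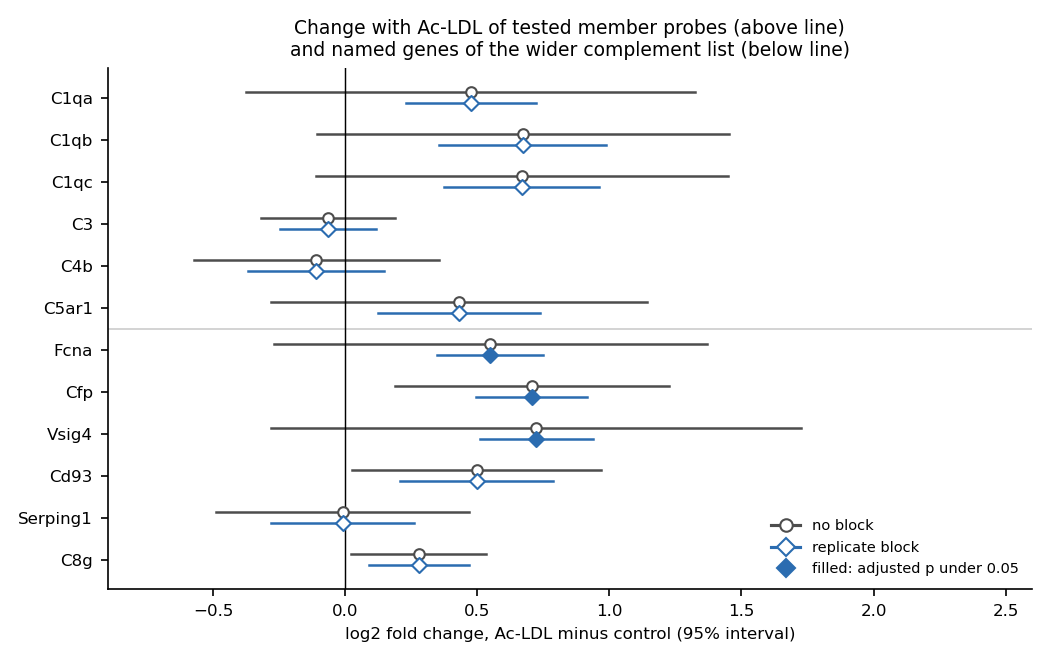
Log2 fold change (Ac-LDL minus control) with its 95% interval for the 6 member probes tested (above the line) and 6 genes of the wider complement list (below it), from the model without a block (grey circles) and with the replicate block (blue diamonds), filled where the adjusted p is under 0.05. *Fcna*, *Cfp* and *Vsig4* are filled with the replicate block only, and the intervals of *C3* and *C4b* include 0 in both models.

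The other genes of the pathway were taken as a list of 47 that the chip carries, of which 23 were tested. None was called without a block, and with the replicate block 3 were called, all higher with Ac-LDL, against 0.164% of all probes tested. They are *Cfp*, *Vsig4* and *Fcna*. Without a block 5 of the 23 had an unadjusted p under 0.05, where 5.2% of all probes tested did, and by the methods' t-test 4. The median log2 fold change of the 23 was 0.10, and 14 were above 0 and 9 below.

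*Cfp* encodes properdin, which stabilizes the alternative-pathway protease built with factor B and is stored and released by myeloid cells. Its deposited signals were 4465, 4266, 6560 and 9555 in control and 7056, 7592, 9157 and 12263 with Ac-LDL. All 4 pairs were higher with Ac-LDL and the groups overlap. The log2 fold change was 0.71 with an interval from 0.19 to 1.23 (limma, adjusted p = 0.807, and 0.0222 with the replicate block). *Vsig4* encodes CRIg, a receptor of tissue macrophages for C3b and iC3b. Its deposited signals were 140, 260, 384 and 490 in control and 208, 406, 534 and 657 with Ac-LDL, and all 4 pairs were higher. The log2 fold change was 0.72 with an interval from -0.28 to 1.73 (limma, adjusted p = 0.961, and 0.0221 with the replicate block). *Fcna* encodes ficolin A, a recognition molecule of the lectin pathway. Its deposited signals were 221, 395, 423 and 633 in control and 279, 523, 591 and 763 with Ac-LDL. The log2 fold change was 0.55 with an interval from -0.27 to 1.37 (limma, adjusted p = 0.961, and 0.0445 with the replicate block). With the slide as a block none of the 3 was called (adjusted p = 0.0757, 0.345 and 0.466). *Vsig4* was 1.11 and *Cfp* 0.59 higher on slide 2 (limma slide term, adjusted p = 0.0199 and 0.0132), and *Fcna* was 0.77 higher there without being called (adjusted p = 0.0663). Leaving out a pair in the fit with the replicate block ended all 3 calls for pair 1, 3 or 4 (adjusted p from 0.0631 to 0.225) and none for pair 2 (0.0312 to 0.0468), which leaves 3 samples a group. The log2 fold changes in these fits were 0.63 to 0.76 for *Cfp*, 0.63 to 0.77 for *Vsig4* and 0.50 to 0.62 for *Fcna*. Without pairs 1 to 4 in turn, 41, 60, 12 and 6 probes of the chip were called, against 76 with all pairs. Without control replicate 1 alone, in the model with no block, the log2 fold change was 0.30 for *Vsig4*, 0.21 for *Fcna*, 0.54 for *Cfp* and 0.29 for *Cd93*, a receptor gene described next.

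By role, the recognition proteins and their proteases had 3 of 11 genes tested, *Fcna*, *C1s* and *Colec12*, with log2 fold changes from -0.18 to 0.55. The amplification genes had 3 of 4 tested, with *C2*, the partner of C4, at 0.10 and *C4a* at -0.09 beside *Cfp*. Of the 7 terminal genes 2 were tested, and *C8g*, a chain of the lytic complex component C8, was at 0.28 (95% interval 0.02 to 0.53, limma adjusted p = 0.904). The regulators had 8 of 15 tested and none called, with *Serping1*, the inhibitor of the C1 proteases and the brightest of them, at -0.01, and *Cd59a*, which blocks the lytic complex on the cell's own membrane, at 0.19 (limma adjusted p = 0.979), a gene named after its value was seen. The receptors had 7 of 10 tested, and *Cd93*, once described as a receptor for C1q, was at 0.50 (95% interval 0.03 to 0.97, limma adjusted p = 0.921) and higher in all 4 pairs. *Calr*, which encodes the C1q-binding protein calreticulin, also had an unadjusted p under 0.05 and was named after its value of 0.47 was seen (limma, adjusted p = 0.686). *Itgam* and *Itgb2*, the chains of complement receptor 3, were at 0.35 and -0.06, and neither was called.

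**Figure D5:**
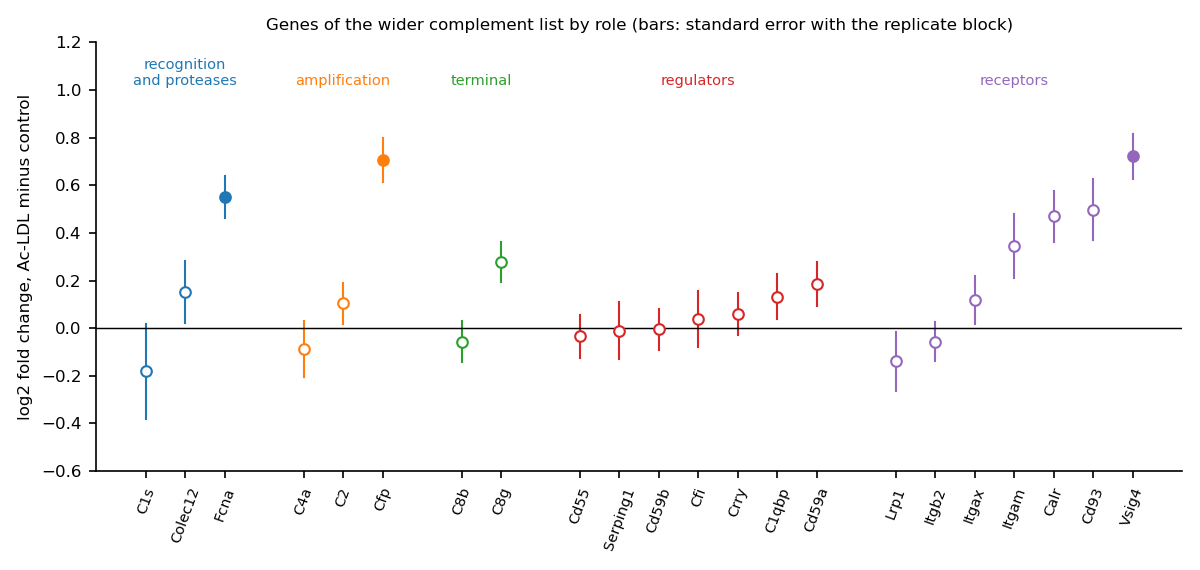
Log2 fold change (Ac-LDL minus control) of 22 of the 23 tested genes of the wider complement list, grouped by role and ordered within a role, with bars for the standard error from the model with the replicate block and filled points for genes called in it. The 3 filled points are *Fcna* at 0.55, *Cfp* at 0.71 and *Vsig4* at 0.72, and the regulators shown lie between -0.03 and 0.19.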

How the data were processed

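RNA of 8 macrophage samples was measured on Illumina mouse bead chips. The authors deposited, per probe and array, the mean bead intensity on a linear scale, without background correction or normalization, and a deposited detection p-value, with the standard error over the beads and their number. BeadStudio is named in the submitters' processing notes. The deposited annotation names no genome build. Probe brightness, not sequencing depth, and 4 arrays per group limit the precision.

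Signals were corrected by normexp from the detection p-values (offset 16), quantile normalized and put on the log2 scale (neqc, limma 3.58.1, R 4.3.3). Probes detected on at least 4 of 8 arrays (17122) were compared between groups with limma and Benjamini-Hochberg adjustment, and called at an adjusted p under 0.05. The fits without a block and with the slide block were tested on simulated data, and the fit with the replicate block was not. A gene of the wider list is given by its brightest tested probe. Named are all members, list genes called in any fit, the brightest and most changed gene of each role, and the 2 nearest profiles per member. 1 gene that the rule names is not reported here. Members and lists were chosen with earlier results of these data known.

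Deviations from group means of samples with the same number correlated at 0.58, 0.48, 0.47 and 0.63 across probes, and of other numbers on the same slide at 0.19 to 0.45. By this check, made on the data and not stated in the labels, samples of the same number were the more alike, partly through the slide. The lowest of the first values lies close to the highest of the second, so the check does not settle that the numbers pair the samples. Replicate and slide blocks, other offsets, median scaling, other detection filters, averaged probes, the methods' unpaired test and leaving out each sample were tried. No sample and no column of per-sample values was left out.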

Additional observations from a re-analysis of the deposited data

How the results depend on the processing

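None of the member probes was called under any alternative run, and of 102 values of member log2 fold changes 98 kept their sign and their side of the threshold. The count of called genes in the wider list changed only with the replicate block, from 0 to 3 (*Fcna* 0.55, adjusted p = 0.0445, *Cfp* 0.71, adjusted p = 0.0222, *Vsig4* 0.72, adjusted p = 0.0221). Calls of these 3 ended when pair 1, 3 or 4 was left out of that fit, an alternative added after the data had been seen, with log2 fold changes of 0.50 to 0.77. The replicate block also called *Apoe* and changed no other call among the genes named. The sign turned on slide 2 alone, an alternative added after the data had been seen, for *C3* (0.0102), *C4b* (0.0658) and *Serping1* (0.26). Leaving out 1 sample gave -0.25 to 0.053 for *C4b*, above 0 without control replicate 2 or Ac-LDL replicate 1, and -0.18 to 0.18 for *Serping1*, above 0 without control replicate 1 or 2 or Ac-LDL replicate 1 or 3. The cause was not tested. It gave 0.36 to 0.91 for *C1qb*, 0.34 to 0.90 for *C1qc*, 0.12 to 0.73 for *C1qa* and 0.19 to 0.63 for *C5ar1*, lowest without control replicate 1 for C1q, and 0.30 to 1.06 for *Vsig4*, 0.21 to 0.83 for *Fcna* and 0.54 to 0.90 for *Cfp*. With median scaling *C1qb*, *C1qc*, *C1qa* and *C5ar1* were at 0.56, 0.55, 0.35 and 0.34, and without background correction *C5ar1* was 0.30. The median over members fell to 0.02 with no filter, since the 4 probes that failed the detection filter then count. Dim signals limit *C4b* and *C5ar1*, at -0.06 and 0.27 with an offset of 50, and leave *C3ar1* and *Cfb* without a value.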
